A study of Mus musculus with 24 samples.

Results

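Neurons that have fired switch on a small class of genes, some of them within minutes. Of these immediate early and activity-induced genes, 37 are described here across the brains of 24 mice. The genes were taken as a list by symbol, with earlier results of these data known, and no threshold on a measured value chose them. Each Ensembl identifier of the count files was mapped to a GRCm38 symbol, which found all 37 genes among 52636 identifiers, and all 37 were abundant enough to be among the 19726 genes tested. The study compared mice with altered EAAT2, the main glutamate transporter of the brain, encoded by Slc1a2, with controls that lack Cre recombinase. One line, called the syn line here, held 6 mice of the genotype syn-Cre+ EAAT2−/− and 6 of syn-Cre− EAAT2+/+. The other, the gfap line, held 6 mice of gfap-Cre+ EAAT2Δ/+ and 6 of gfap-Cre− EAAT2+/+. As these driver names are commonly used, a synapsin promoter directs Cre to neurons and a GFAP promoter to astrocytes, although GFAP promoters are also active in neural progenitors. The cell type label names the driver line and not sorted cells, since total RNA came from brain tissue. The brain region, the age and the state of the animals at death are not given in the labels. Whole tissue sums over all cell types, so fewer cells of a type and less RNA per cell cannot be told apart.

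Synaptic glutamate raises calcium in the neuron, and calcium-dependent kinases and the ERK pathway then phosphorylate transcription factors that already sit on the promoters, CREB at cAMP response elements and SRF with its partners at serum response elements. The first genes to respond need no new protein and encode transcription factors such as Fos, Egr1 and Npas4, or proteins that act at the synapse such as Arc. Others encode phosphatases and adaptor proteins that switch the signal off again, and secreted proteins such as Bdnf that act on neighbouring cells. The messengers of the first genes to respond are short-lived, so their levels in a tissue sample follow what happened shortly before death.

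Depth was high in all libraries, with 41596313 to 69652824 counts assigned to genes. The lowest count of any member in any library was 10, for Egr2. Levels are given as CPM, each count scaled by the TMM-adjusted total of its library, and differences as log2 fold changes from edgeR. A gene is called where the adjusted p over all genes tested was under 0.05. Slc1a2 itself had medians of 3031 and 3292 CPM in the syn-Cre+ and syn-Cre− groups and of 3549 and 3636 CPM in the gfap-Cre+ and gfap-Cre− groups, and was called in neither Cre comparison (edgeR adjusted p = 1.00 in both). It ranged from 2616 to 3235 CPM in syn-Cre+ and from 3227 to 3461 CPM in syn-Cre− mice. In the gfap line the ranges were 3043 to 3855 CPM with Cre and 2494 to 3980 CPM without. It was called lower in syn-Cre+ than in gfap-Cre+ mice, by −0.21 in log2 (edgeR adjusted p = 0.0440), but not between the lines without Cre (−0.08, edgeR adjusted p = 0.437). Which exons the alleles lack is not given, so counts over the whole gene need not fall with a deletion. The 10 neuron markers and the 10 astrocyte markers were detected in every group. The annotated exons of 8 members overlap those of another gene, with strand use not given in the sources used here: Jun, Junb, Dusp1, Bdnf, Csrnp1, Plk3, Pim1 and Tiparp. Whether counted reads lie in the overlaps was not examined.

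The AP-1 genes encode leucine zipper proteins that pair with each other on DNA, and Fos is the classical marker of a recently active neuron. Fos (ENSMUSG00000021250, GRCm38 chromosome 12, 85473890 to 85477273) had a lowest, median and highest level of 2.75, 5.20 and 12.6 CPM in the syn-Cre+ group and of 2.34, 7.21 and 27.0 CPM in the syn-Cre− group. In the gfap line it had 2.83, 6.49 and 18.2 CPM in the Cre+ group and 2.66, 3.93 and 10.6 CPM in the Cre− group. Each group thus held mice with low and with high Fos, the 4 ranges overlapped, and the single highest library, syn-Cre− replicate 2, stood 11.5-fold above the lowest of its own group. Fosb followed with group medians of 5.67 to 6.52 CPM and was again highest in syn-Cre− replicate 2. Junb, a partner of Fos, ran from 20.6 to 58.6 CPM over all libraries. Jun, the other main partner, varied less, from 67.0 to 108.8 CPM, and Fosl2 ran from 41.9 to 69.6 CPM. Atf3, a stress-induced member of the same superfamily, ran from 0.351 to 1.41 CPM, with as few as 18 reads in a library.

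**Figure D1:**
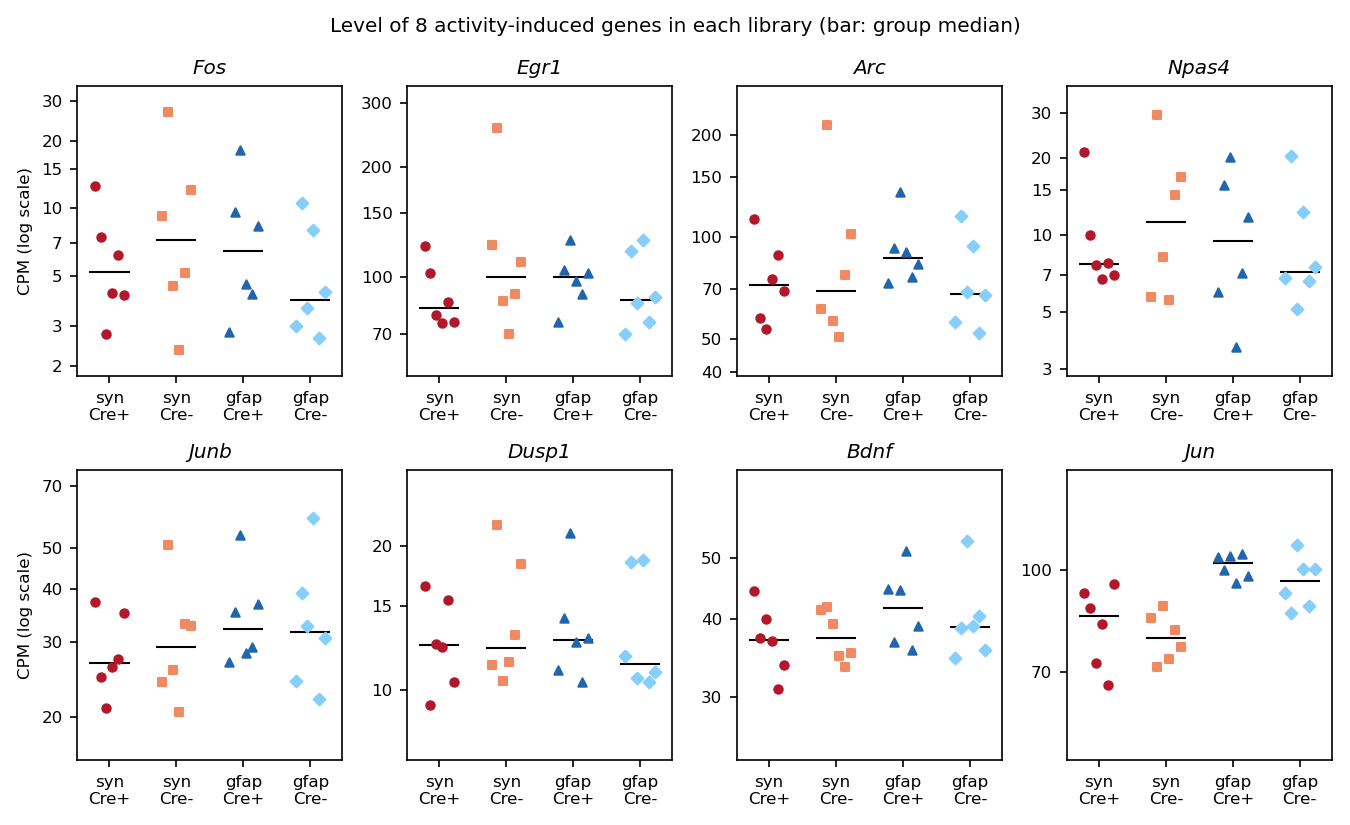
Level in CPM, on a log axis, of Fos, Egr1, Arc, Npas4, Junb, Dusp1, Bdnf and Jun in each of the 24 libraries, 6 per group, with a bar at the group median. Fos spans 2.34 to 27.0 CPM with all 4 groups overlapping, while Jun lies between 67.0 and 108.8 CPM and is lower in the syn line than in the gfap line.

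The EGR genes encode zinc finger transcription factors downstream of ERK and SRF. Egr1 (ENSMUSG00000038418, chromosome 18, 34859823 to 34864984) had a lowest, median and highest level of 74.8, 82.3 and 122 CPM in syn-Cre+ mice, 70.1, 100.1 and 256 CPM in syn-Cre− mice, 75.5, 100.2 and 126 CPM in gfap-Cre+ mice and 69.9, 86.7 and 126 CPM in gfap-Cre− mice. Outside syn-Cre− replicate 2 no library exceeded 126 CPM. Egr2 was the scarcest member per length of exon, at 0.178 to 4.17 CPM. Its range within the syn-Cre− group was 12.8-fold. Egr3 varied less than Egr1, at 75.4 to 156 CPM, and Egr4 ran from 5.86 to 22.4 CPM.

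The NR4A genes encode orphan nuclear receptors induced by cAMP and calcium. Nr4a1 had group medians of 44.7 to 51.0 CPM and a highest library of 98.6 CPM, syn-Cre− replicate 2. Nr4a2 had group medians of 51.9 to 59.9 CPM. Nr4a3 had medians of 84.1 CPM in syn-Cre+ mice, 77.5 in syn-Cre− mice, 101 in gfap-Cre+ mice and 107 CPM in gfap-Cre− mice.

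Npas4, a neuron-specific factor that responds to calcium and not to growth factors, ran from 3.67 to 29.4 CPM, and the highest library was once more syn-Cre− replicate 2. Among the other regulators, Ier2 and Ier5 reached 6.03 and 65.5 CPM, and the antiproliferative gene Btg2 had group medians of 14.0 to 17.9 CPM. The Krüppel-like factors Klf2 and Klf4, which endothelial cells also express, had group medians of 2.84 to 3.92 CPM. Klf10 had group medians of 22.5 to 25.0 CPM, Csrnp1 of 6.68 to 8.66 CPM and the repressor Nfil3 of 6.21 to 7.23 CPM.

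Among genes that feed back on signalling, the MAP kinase phosphatase Dusp1 had group medians of 11.3 to 12.7 CPM, and the ERK-specific phosphatase Dusp6 of 43.5 to 55.5 CPM. The Polo-like kinase Plk2, which weakens synapses after strong activity, ran from 175 to 244 CPM, and its relative Plk3 ran from 5.86 to 10.4 CPM. Gadd45b, Gadd45g, Sik1, Trib1, Tiparp and Pim1 had group medians between 1.09 and 15.9 CPM. Of the synaptic and secreted proteins, Arc, which drives removal of AMPA receptors from synapses, had a lowest, median and highest level of 53.6, 72.3 and 113 CPM in syn-Cre+ mice and 50.5, 69.2 and 215 CPM in syn-Cre− mice. It had 72.9, 86.6 and 135 CPM in gfap-Cre+ mice and 52.1, 67.9 and 115 CPM in gfap-Cre− mice, so its medians were close in the syn line and the high ends differed. The neurosecretory peptide precursor Vgf had group medians of 136 to 162 CPM, the growth factor Bdnf of 37.1 to 41.7 CPM, the pentraxin Nptx2 of 16.1 to 20.4 CPM and the activin subunit Inhba of 5.71 to 6.10 CPM. Per kilobase of exon the order was led by Vgf at 51.7 CPM, Plk2 at 47.8, Jun at 28.1 and Arc at 27.6, and closed by Pim1 at 0.383, Atf3 at 0.340 and Egr2 at 0.297.

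The neuronal arm asks whether Cre aimed at neurons changed these genes. None of the 37 was called, where 0.00507% of all genes tested were, and DESeq2 and limma-voom called none either. The direction leaned down: 29 of the 37 had a lower fitted level in syn-Cre+ than in syn-Cre− mice, against 51.4% of all genes, and the median log2 fold change of the members was −0.18 against 0.00 over all genes. That lean depended on 1 control library. Without syn-Cre− replicate 2 the median was −0.01 and 20 members were lower. Other lists leaned in the same comparison, with 1 gene called among them, the astrocyte water channel gene Aqp4 at 0.55 (edgeR adjusted p = 2.0e-05). All 15 glucocorticoid-responsive genes, all 10 heat shock genes and all 10 choroid plexus markers had lower fitted levels in syn-Cre+ mice, with median log2 fold changes of −0.27, −0.12 and −0.49. Of the 9 cortex markers 2 were higher, with a median of −0.18, and of the 9 cerebellum markers tested 8 were higher, with a median of 0.43. Their part in the lean was not tested.

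Fos had a log2 fold change of −0.69 with a 95% interval of −1.86 to 0.47 (edgeR adjusted p = 1.00), and −0.10 without syn-Cre− replicate 2. Egr1 had −0.45 (−0.97 to 0.07), and −0.09 without that library. Arc had −0.30 (−0.95 to 0.35), and the sign turned to 0.13 without it. The intervals of these genes are wide, and both falls and rises lie inside them. For Fosb, Npas4 and Nr4a1 the values were −0.43, −0.41 and −0.31, all with edgeR adjusted p = 1.00, and they came to −0.14, −0.01 and −0.08 without syn-Cre− replicate 2.

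At an unadjusted p under 0.05 there were 4 members, Vgf, Trib1, Klf4 and Nptx2, all lower in syn-Cre+ mice, beside 922 of all genes (4.67%). Vgf ranged from 127 to 142 CPM in syn-Cre+ mice and from 122 to 200 CPM in syn-Cre− mice. The Cre+ values were tightly packed in the lower part of the Cre− range, with a log2 fold change of −0.26 (−0.44 to −0.07, edgeR adjusted p = 0.841). Klf4 ranged from 2.29 to 3.74 CPM in the Cre+ group and from 3.23 to 4.59 CPM in the Cre− group. For this gene 4 of 6 Cre+ libraries lay below all Cre− libraries, with a log2 fold change of −0.36 (−0.63 to −0.09, edgeR adjusted p = 0.879). Trib1, a pseudokinase that directs protein degradation, had −0.35 (edgeR adjusted p = 0.841), and Nptx2, which gathers AMPA receptors at excitatory synapses, had −0.25 (edgeR adjusted p = 1.00). The values nearest to 0 without 1 library were −0.19 for Vgf, −0.29 for Klf4, −0.17 for Trib1 and −0.15 for Nptx2.

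The astrocytic arm asks the same of Cre aimed at astrocytes, in mice of the genotype EAAT2Δ/+. Again none of the 37 was called, where 0.0101% of all genes were, none by DESeq2 or limma-voom, and none had an unadjusted p under 0.05, against 590 of all genes (2.99%). Of the 37, 24 were higher in gfap-Cre+ mice, against 48.8% of all genes. The median log2 fold change of the members was 0.03, which fell to −0.03 without gfap-Cre+ replicate 3. Egr2 had the largest value at 0.73 (−0.49 to 1.95), followed by Fos at 0.57 (−0.60 to 1.75) and Arc at 0.28 (−0.37 to 0.92), all with edgeR adjusted p = 1.00. Without gfap-Cre+ replicate 3 the values of Egr2, Fos and Arc were 0.45, 0.15 and 0.13, and without gfap-Cre− replicate 2 they were 0.95, 0.89 and 0.44. Dusp6 had 0.21 (−0.01 to 0.43, edgeR adjusted p = 1.00), with 3 of 6 Cre+ libraries above all Cre− libraries and 0.17 to 0.24 over all left-out libraries.

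The test of the difference between the effects in the syn and gfap lines called none of the 37, where 0.0101% of all genes were called, and DESeq2 and limma-voom called none of them. At an unadjusted p under 0.05 it held 1 member, Klf4, against 691 of all genes. For 33 of the members the fitted Cre effect was lower in the syn line than in the gfap line, against 49.7% of all genes. The median difference of the members was −0.18 in log2, which was −0.06 without syn-Cre− replicate 2. Klf4 differed by −0.49 (−0.87 to −0.10), Fos by −1.27 (−2.92 to 0.38) and Egr2 by −1.33 (−3.04 to 0.37), all with edgeR adjusted p = 1.00. Without syn-Cre− replicate 2 the values of Fos and Egr2 were −0.68 and −0.54.

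**Figure D2:**
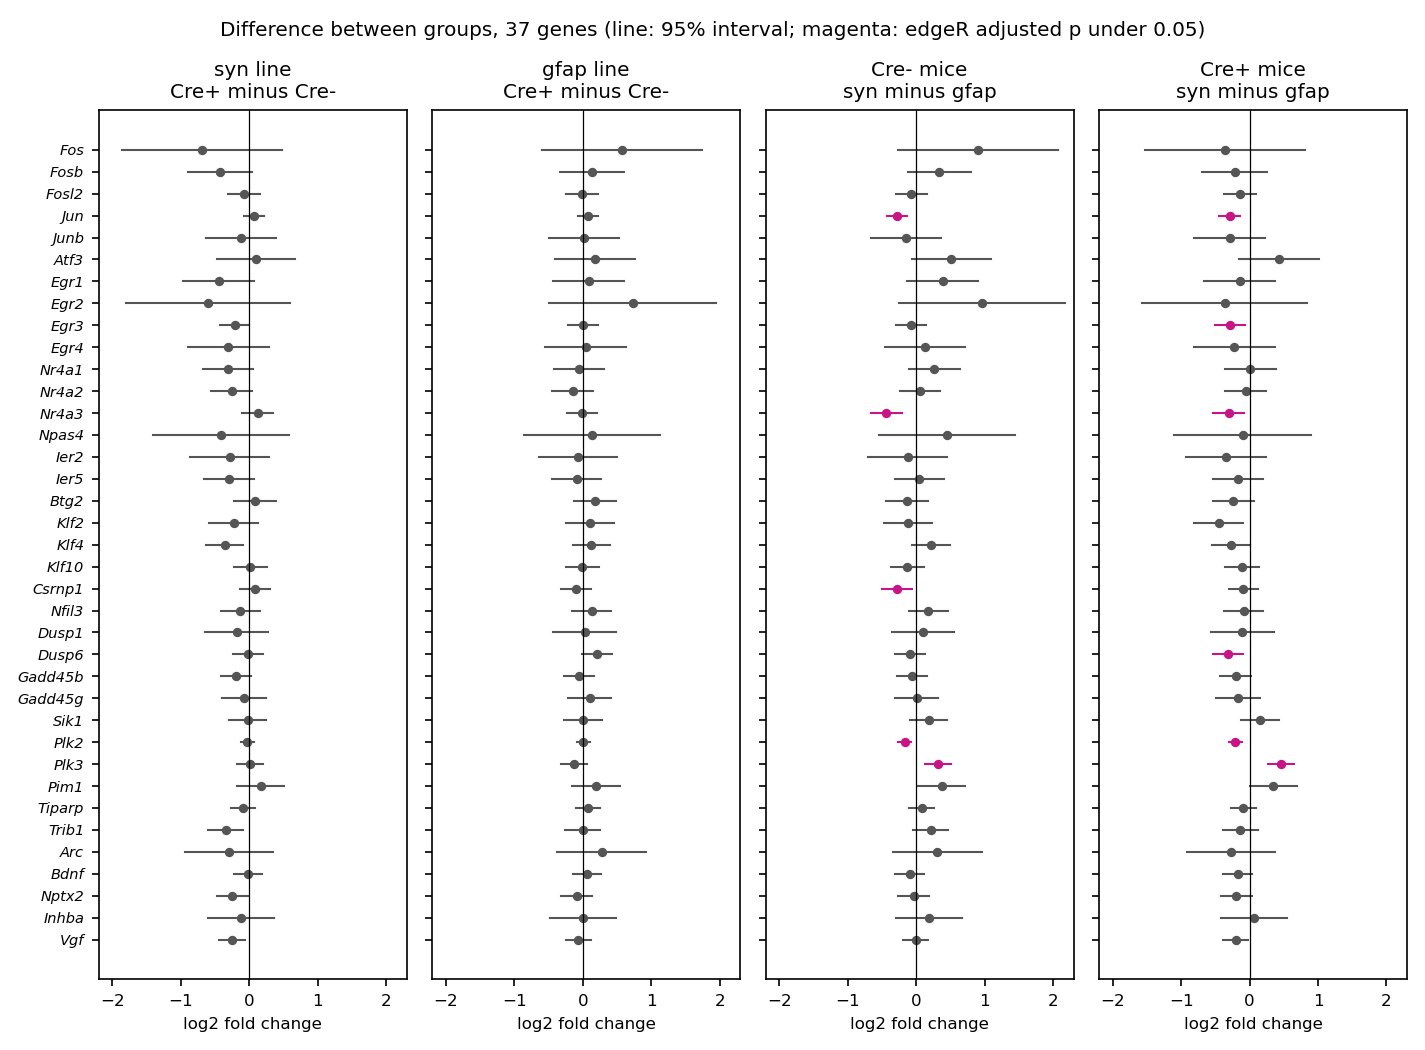
Log2 fold change of each of the 37 genes with its 95% interval, from edgeR, for Cre+ minus Cre− mice in the syn line and in the gfap line and for syn minus gfap mice without and with Cre, in magenta where the adjusted p was under 0.05. No gene is magenta in the 2 Cre comparisons, where Fos, Egr2 and Npas4 have the widest intervals, and 5 and 6 genes are in the 2 comparisons of lines.

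Between the lines, a few members did differ. In Cre-negative mice 5 of 37 members (13.5%) were called, where 31.2% of all genes were, and in Cre-positive mice 6 of 37 (16.2%), where 27.5% of all genes were. By direction, 1 was higher and 4 lower in syn mice without Cre (14.6% and 16.6% of all genes), and 1 higher and 5 lower with Cre (12.8% and 14.7%). Both shares are below the background, so they are no result about the class. These 2 comparisons have no library in common. Each shares its libraries with the Cre comparisons above, so the signs of the 4 are not independent. Line, strain background and dissection cannot be told apart here. The share of reads outside genes also separated the lines, at 7.52% to 11.1% in syn libraries and 4.47% to 6.37% in gfap libraries. Its part in the line differences was not tested. Marker lists moved with the lines as well: all 10 oligodendrocyte markers were higher in syn than in gfap mice in both comparisons, 8 and 10 of them called, and 8 of 10 neuron markers were called lower in each. The 10 choroid plexus markers summed to between 72.0 and 5404 CPM in syn libraries and between 53.7 and 277 CPM in gfap libraries, and 7 of the 10 endothelial markers were called lower in syn-Cre+ mice. Their part in the values below was not tested.

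Jun (ENSMUSG00000052684, chromosome 4, 95049034 to 95052222) was lower in the syn line in both comparisons. In Cre-negative mice it had a lowest, median and highest level of 71.1, 78.7 and 88.0 CPM in syn mice against 86.1, 96.1 and 108.8 CPM in gfap mice, and 5 of 6 syn libraries lay below all gfap libraries. In Cre-positive mice it had 67.0, 85.0 and 95.1 CPM against 95.3, 102 and 105 CPM, and the groups did not overlap. The log2 fold changes were −0.28 (−0.43 to −0.13, edgeR adjusted p = 0.00477) and −0.29 (−0.44 to −0.14, edgeR adjusted p = 0.00407). Plk3, a stress-responsive kinase, went the other way, with 7.34 to 10.3 CPM in syn-Cre− mice against 6.01 to 8.10 CPM in gfap-Cre− mice, and 7.77 to 10.4 CPM against 5.86 to 7.02 CPM with Cre. All 6 syn-Cre+ libraries lay above all gfap-Cre+ libraries. The log2 fold changes were 0.32 (edgeR adjusted p = 0.0110) and 0.46 (edgeR adjusted p = 9.1e-04). Its relative Plk2 was lower in the syn line, by −0.17 without Cre and −0.21 with Cre (edgeR adjusted p = 0.00700 and 0.00159), and its groups did not overlap with Cre, at 175 to 212 CPM against 217 to 244 CPM. The share of all genes whose groups do not overlap is not given here, so the lack of overlap is a description. Jun, Plk2 and Plk3 kept their calls in both comparisons under each library left out and each alternative scaling, filter and tool run.

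The other calls were less firm. Nr4a3 was lower in the syn line by −0.44 without Cre (edgeR adjusted p = 0.00416), a call kept under each library left out, and by −0.31 with Cre (edgeR adjusted p = 0.0384), a call lost under 9 of 24 left-out libraries. Csrnp1, a nuclear factor induced by Axin, was called only without Cre, at −0.28 (edgeR adjusted p = 0.0451), and 12 of 24 left-out libraries ended the call. Dusp6 and Egr3 were called only with Cre, at −0.32 and −0.28 (edgeR adjusted p = 0.0279 and 0.0478), and lost the call under 6 and 18 of 24 left-out libraries. The groups of Egr3 did not overlap with Cre either, at 75.4 to 100 CPM in syn mice against 102 to 122 CPM in gfap mice. Whether a line difference depends on Cre is the same test as the difference of Cre effects above, which called no member. With RLE or upper-quartile scaling, or a filter at 1 CPM, Egr3, Nr4a3 and Dusp6 were not called with Cre, which left 3 members, and Csrnp1 was not called without Cre. Fos differed by 0.91 without Cre (−0.26 to 2.08, edgeR adjusted p = 0.228), and by 0.32 without syn-Cre− replicate 2.

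Mice of the same group differed more in the median member than in the median gene. The median SD of the members between libraries of a group was 0.26 on the log2 scale, against 0.18 over all genes tested. Among genes with a mean of at least 3 log2 CPM, the 24 members that reach it had a median of 0.23 and the 10489 genes in all had 0.12. Egr2 and Fos varied most, with SDs of 0.98 and 0.96, followed by Npas4 at 0.82 and Arc at 0.51. Plk2 and Jun varied least, at 0.07 and 0.14. In syn-Cre− replicate 2, 36 of the 37 members were above their group mean, and in gfap-Cre+ replicate 3 and syn-Cre+ replicate 1 it was 34 and 31. In syn-Cre− replicate 4 only 3 were above it, and in gfap-Cre− replicate 1 it was 6. High and low mice thus occurred in groups with and without Cre.

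To measure how the members move together, each gene was fitted in edgeR with a group term and the log2 CPM of Fos, centred on its group mean. The slope is the log2 change of a gene for 1 log2 unit, a doubling, of Fos between mice of 1 group. Of the 36 members other than Fos, 14 (38.9%) rose with Fos, where 0.0963% of all genes tested were called, and none fell. These 14 were among only 19 genes called of 19725. Slopes were positive for 34 of 36 members, against 50.1% of all genes, and the median Pearson correlation with Fos within groups was 0.52 for the members and 0.00 for all genes.

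The count of 14 depends on the libraries at the ends of the Fos range. It was 7 without syn-Cre− replicate 2 and 3 (Arc, Egr1 and Egr2) without both that library and gfap-Cre+ replicate 3, the 2 libraries farthest from the median of Fos, an alternative chosen after seeing the data. The slopes of all 14 stayed positive in both. Fitted in 1 line alone, with 12 libraries, 4 members were called in the syn line (Dusp6, Egr1, Egr2 and Ier5) and 5 in the gfap line (Arc, Dusp1, Egr1, Ier2 and Npas4), with all 14 slopes positive in each. The test of a difference in slope between the lines called 0% of genes, no member among them by edgeR, with 5 members, Nfil3, Dusp6, Egr2, Egr3 and Egr1, at an unadjusted p under 0.05, beside 762 of all genes (3.86%).

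Egr1 followed Fos most closely. Its slope was 0.40 (0.33 to 0.48, edgeR adjusted p = 2.1e-06), first of 19725 genes by p, with Pearson's r of 0.91 and Spearman's rho of 0.91 over 24 libraries, 1 of 36 such relations computed. By permutation within groups p was 1.0e-05 for both, the smallest that 100000 permutations can give, and r was 0.91 again without the 2 farthest libraries. Within the single groups of 6, r was 0.91 in syn-Cre+, 0.94 in syn-Cre−, 0.96 in gfap-Cre+ and 0.95 in gfap-Cre− mice. Arc, Egr2, Npas4 and Btg2 had r from 0.72 to 0.99 in the single groups. Other called members were less even. In syn-Cre+ mice r was 0.08 for Gadd45g, 0.33 for Fosb, 0.38 for Dusp1 and 0.42 for Egr4. In gfap-Cre+ mice it was 0.38 for Ier5 and 0.42 for Nr4a1. Egr2 had the steepest slope, 0.92 (0.70 to 1.14, edgeR adjusted p = 3.2e-05), with r = 0.86 and rho = 0.80. With a slope for each line it was 1.15 in the syn line and 0.62 in the gfap line, a difference that was not called. Npas4 came next with a slope of 0.71 (0.52 to 0.91, edgeR adjusted p = 0.00119) and r = 0.83, then Arc with 0.47 (0.35 to 0.59, edgeR adjusted p = 3.5e-04) and r = 0.86.

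The other 10 called slopes ran from 0.16 to 0.43. The transcription factor genes Fosb, Junb and Egr4 had slopes of 0.34, 0.36 and 0.38 (edgeR adjusted p = 0.00351, 0.00351 and 0.0281), and the receptor Nr4a1 had 0.24 (0.0293). Ier2, Ier5 and Btg2 had 0.43, 0.24 and 0.23 (edgeR adjusted p = 0.00141, 0.0281 and 0.00141). Of the signalling brakes, Dusp1 had 0.32, Gadd45g 0.23 and Dusp6 0.16 (edgeR adjusted p = 0.00141, 0.0219 and 0.00364). Gadd45b, Egr3 and Trib1 did not pass the threshold, with slopes of 0.14, 0.13 and 0.16 (edgeR adjusted p = 0.153, 0.153 and 0.154) and r of 0.72, 0.63 and 0.65. Klf10 and Nr4a2 had 0.12 and 0.14 (edgeR adjusted p = 0.355 and 0.396). With values centred also on the first number of the sample title, whose meaning the labels do not give, 11 members were called, and Dusp6, Ier5 and Nr4a1 were not, with slopes still positive. No first number is shared between groups, so in the group comparisons what it stands for cannot be told apart from Cre or line. Whether libraries with the same first number are independent is not given.

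**Figure D3:**
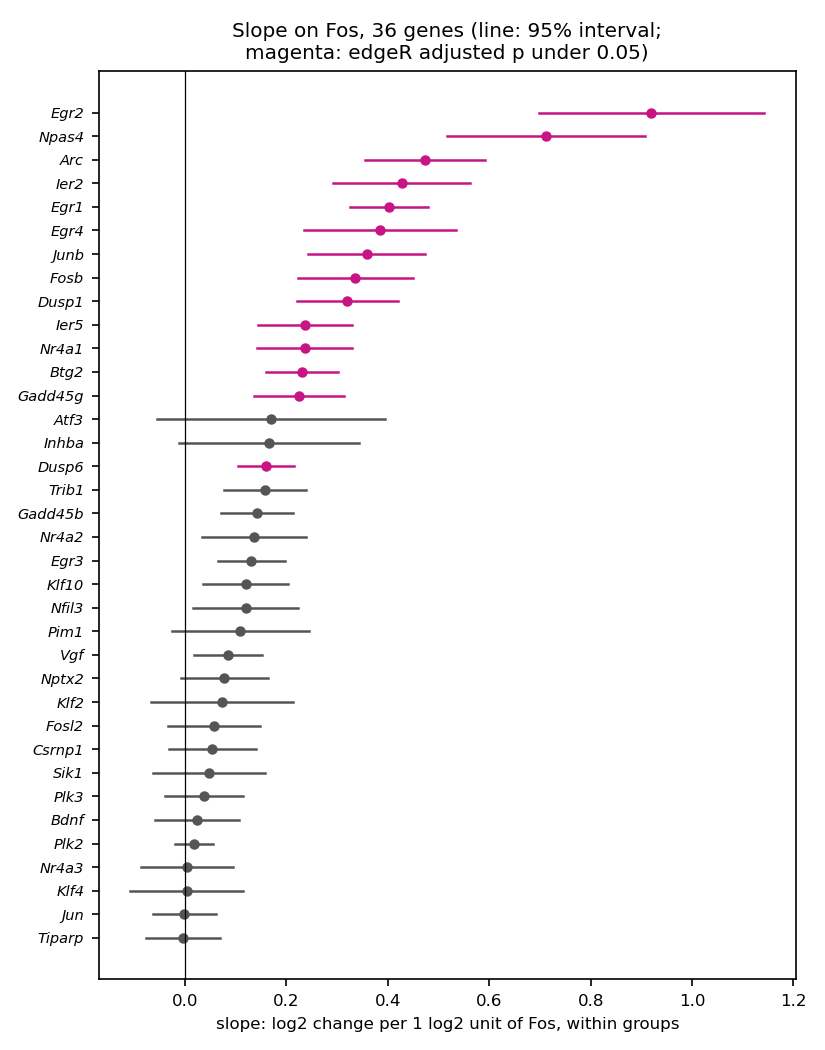
Slope of each of the 36 other genes on Fos with its 95% interval, in log2 change per 1 log2 unit of Fos between libraries of a group, from edgeR, in magenta where the adjusted p was under 0.05. Egr2 at 0.92 and Npas4 at 0.71 are steepest, and the 14 called genes all lie to the right of 0.

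Not every member followed Fos. Pearson's r with Fos was −0.01 for Jun, 0.00 for Nr4a3, −0.02 for Tiparp, 0.03 for Klf4 and 0.13 for Bdnf, with edgeR adjusted p for the slope from 0.892 to 0.991. Jun and Nr4a3 were also the pair whose median correlation with the other 36 members was lowest, −0.01 and 0.03. Both were well covered in every library, with at least 3199 counts for Jun and 2790 for Nr4a3. Fosl2, Klf2, Plk2, Plk3, Sik1, Csrnp1 and Atf3 had r between 0.15 and 0.30, and Nptx2, Inhba, Pim1, Nfil3 and Vgf between 0.36 and 0.48.

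**Figure D4:**
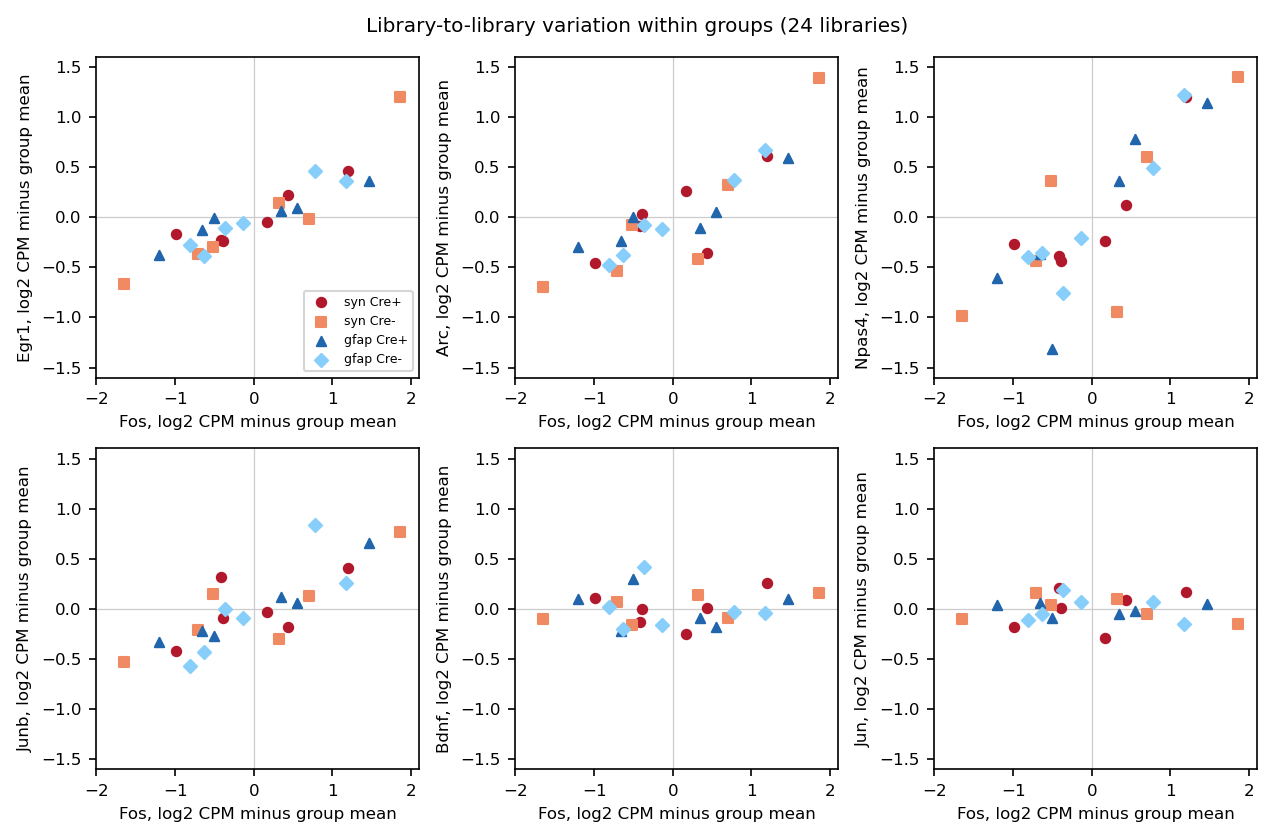
Log2 CPM of Egr1, Arc, Npas4, Junb, Bdnf and Jun against that of Fos, each minus its group mean, with 1 point per library and a colour and marker per group. Egr1 (r = 0.91), Arc (0.86), Npas4 (0.83) and Junb (0.81) rise with Fos, while for Bdnf (0.13) and Jun (−0.01) r was near 0.

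The members also followed each other. Over all 666 pairs of members, 87.1% of the within-group correlations were positive and 32.3% exceeded 0.5, against 49.7% and 3.99% over pairs of all genes tested. The highest were Fosb with Egr3 at 0.93, Junb with Egr4 at 0.91, Fos with Egr1 at 0.91 and Junb with Gadd45g at 0.90. The lowest were Jun with Plk3 at −0.63 and Nr4a3 with Plk3 at −0.53, the genes that also differed in opposite directions between the lines. The members with the highest median correlation with the rest were Egr1 and Egr4, both at 0.61, ahead of Nr4a1 and Arc at 0.57, while Fos had 0.52. These correlations share libraries and are given as a description.

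**Figure D5:**
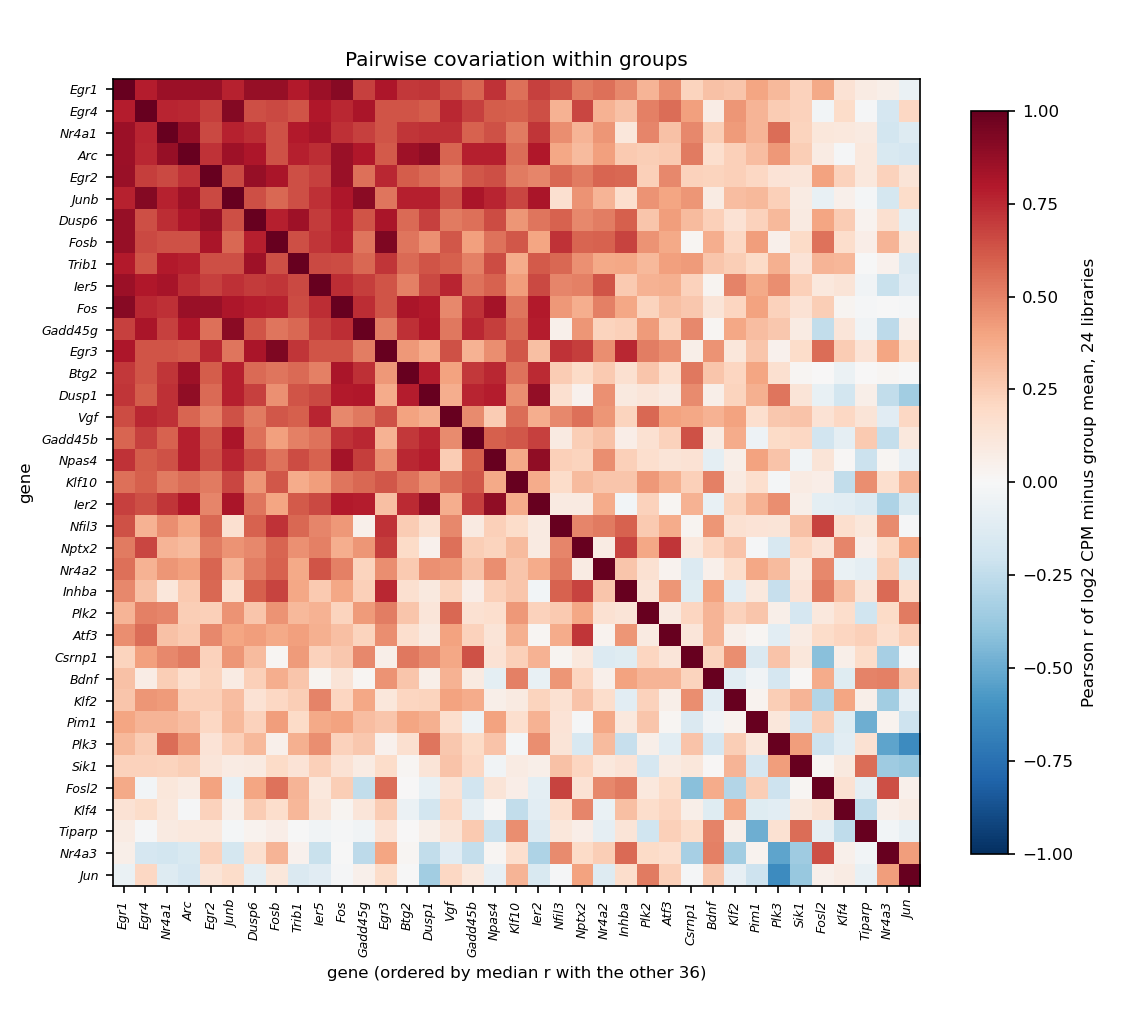
Pearson correlation of log2 CPM minus the group mean over 24 libraries for each pair of the 37 genes, ordered by each gene's median correlation with the other 36, from Egr1 at 0.61 to Jun at −0.01. High values gather among the genes that come first, and the last genes, with Nr4a3 and Jun, have values on both sides of 0.

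The median correlation of the members with Fos was 0.38 in syn-Cre+, 0.76 in syn-Cre−, 0.40 in gfap-Cre+ and 0.64 in gfap-Cre− mice, with 33, 34, 27 and 28 of 36 positive. The difference of Cre+ from Cre− groups in these medians was not tested. The syn-Cre− value includes replicate 2, and without that library the median over all groups together was 0.45, against 0.52 with it. The mean level of several lists moved with Fos as well. For the 9 cerebral cortex markers other than Nr4a2 r was 0.59, for 40 further activity-regulated genes 0.59, and for the 10 heat shock genes 0.47. The neuron markers had 0.37, close to the astrocyte markers at 0.33 and the oligodendrocyte markers at 0.32, while microglia markers had 0.26 and choroid plexus markers −0.22. Depth had r = 0.16 and the share of reads outside genes −0.21. With the cortex mean as a further term in the fit 2 members were called, Egr1 and Egr2, and with the heat shock mean 7, and all 14 slopes stayed positive in both. These terms were chosen after seeing the data, and the part of tissue composition in the covariation was not tested. With depth as a term, the count stayed at 14.

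Genes outside the list that rose with Fos were few. Those called were Rasd2, a striatal small G protein, Rhobtb2, Irf2bp2 and Tmem151b, each with a slope of 0.11, and 1700016P03Rik, a gene with a provisional name, with a slope of 0.46. By r with Fos, among genes with a mean of at least 3 log2 CPM, the 10 leading non-members were Rasd2 (0.82), Irf2bp2 (0.79), Rhobtb2 (0.79), Snapc5 (0.77), Map1lc3b (0.76), Map6 (0.75), Tmub1 (0.74), Midn (0.73), Tmem151b (0.73) and Tspan5 (0.73). Their slopes were 0.07 to 0.13, against 0.16 to 0.92 for the 14 called members.

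A further 40 activity-regulated genes and 34 genes of the upstream signalling machinery were read from the same fits. Of the 40, none was called in either Cre comparison or in the slope on Fos, although 34 of 40 slopes were positive with a median of 0.04. Between the lines, 2 were called higher and 6 lower in each comparison, together a smaller share than the 31.2% and 27.5% of all genes. By p the leading genes in Cre-negative mice were the synaptic plasticity gene Nrn1 at −0.28, Amigo3 at 0.54, the histone demethylase Kdm6b at 0.38, the small G protein Rheb at −0.18, the granin Scg2 at −0.18 and the prostaglandin synthase Ptgs2 at −0.26. Of the 34 upstream genes, 3 were called higher and 11 lower in syn mice in each comparison of lines and none elsewhere. Of all genes, 14.6% were called higher and 16.6% lower without Cre, and 12.8% and 14.7% with Cre. In Cre-negative mice the calcineurin genes Ppp3cb, Ppp3ca and Ppp3r1 had −0.32, −0.34 and −0.29, the MAP kinase genes Map2k1 and Mapk3 −0.34 and −0.31, and the CREB coactivator gene Crtc2 0.38. In Cre-positive mice Ppp3cb, Ppp3ca and Ppp3r1 had −0.26, −0.29 and −0.30, Map2k1 −0.30 and Crtc2 0.38. The neuron markers were lower in the same comparisons, with median log2 fold changes of −0.20 and −0.24, and their part was not tested.

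Because a subset of the members moved together, their promoters were read for the elements named above. RefSeq (GRCm38.p6) start sites with 250 bases before and 50 after were at hand for 28 of the 37. Without a window were Egr1, Egr3, Arc, Ier2, Klf10, Nptx2, Sik1, Trib1 and Vgf, and of these Egr1, Arc and Ier2 were called with Fos. A gene was counted where any of its windows held a motif, which favours genes with many windows. Bdnf, Egr2 and Csrnp1 have 7, 5 and 4 windows, while over all genes 32851 windows belong to 27025 genes. The short CRE motif, TGACG on either strand, was in 19 of the 28 (67.9%), where 23% of all genes with such windows and 20.8% of all windows hold it. It was in Fos itself, in 8 of 11 members called with Fos and in 10 of 16 others. The full palindromic CRE, TGACGTCA, which contains the short one on both strands, was in Btg2, Dusp1 and Plk2, and 2.03% of all genes hold it. A CArG box, the core of the serum response element, was in Egr2 alone of the 28, and 1.81% of all genes hold it. Elements farther than 250 bases before the start were not read, so a window without a match does not show that a gene lacks them. Windows are shown for Fos itself, for the steep followers Egr2 and Npas4, for Btg2 and Dusp1 with a full CRE, and for Nr4a3 and Jun, which did not follow Fos. The Egr2 window is 1 of 5 for that gene. Its window from base 67535249 holds no CArG box and no CRE, and that from 67537316 another CArG box and no CRE. Capitals mark short and full CREs and, in Egr2, also the CArG box, the middle of its 3 capital runs. They run 5′ to 3′ on the gene's strand.
Fos, chr12:85473640-85473939, plus strand: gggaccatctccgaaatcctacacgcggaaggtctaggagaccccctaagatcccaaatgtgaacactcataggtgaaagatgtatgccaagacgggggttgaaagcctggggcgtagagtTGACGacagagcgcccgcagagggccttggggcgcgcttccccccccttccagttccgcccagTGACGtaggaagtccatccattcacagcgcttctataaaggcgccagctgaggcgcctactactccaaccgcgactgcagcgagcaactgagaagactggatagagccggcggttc
Egr2, chr10:67537619-67537918, plus strand: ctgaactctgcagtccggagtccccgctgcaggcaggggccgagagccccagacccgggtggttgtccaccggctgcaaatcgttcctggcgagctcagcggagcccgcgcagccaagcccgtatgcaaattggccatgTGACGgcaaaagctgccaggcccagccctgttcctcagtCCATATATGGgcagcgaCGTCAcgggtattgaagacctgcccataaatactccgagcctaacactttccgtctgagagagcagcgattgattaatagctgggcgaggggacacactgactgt
Npas4, chr19:4989922-4990221, minus strand: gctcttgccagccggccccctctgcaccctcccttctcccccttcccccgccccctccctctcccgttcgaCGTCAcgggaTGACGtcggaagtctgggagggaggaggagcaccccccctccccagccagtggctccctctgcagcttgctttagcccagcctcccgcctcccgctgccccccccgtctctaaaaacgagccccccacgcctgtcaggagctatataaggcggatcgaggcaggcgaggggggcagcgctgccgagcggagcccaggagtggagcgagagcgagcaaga
Btg2, chr1:134079106-134079405, minus strand: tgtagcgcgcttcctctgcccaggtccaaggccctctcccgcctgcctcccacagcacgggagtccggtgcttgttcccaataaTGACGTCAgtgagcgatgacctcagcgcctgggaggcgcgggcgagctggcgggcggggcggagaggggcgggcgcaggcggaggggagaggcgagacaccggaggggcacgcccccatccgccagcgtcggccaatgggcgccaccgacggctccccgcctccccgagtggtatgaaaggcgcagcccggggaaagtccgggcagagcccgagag
Dusp1, chr17:26508423-26508722, minus strand: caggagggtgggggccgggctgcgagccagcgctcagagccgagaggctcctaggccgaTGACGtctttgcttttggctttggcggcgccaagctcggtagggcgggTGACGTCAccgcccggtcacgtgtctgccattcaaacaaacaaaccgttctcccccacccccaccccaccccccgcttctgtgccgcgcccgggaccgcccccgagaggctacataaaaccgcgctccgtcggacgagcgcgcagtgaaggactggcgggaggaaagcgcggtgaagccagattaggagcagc
Nr4a3, chr4:48045055-48045354, plus strand: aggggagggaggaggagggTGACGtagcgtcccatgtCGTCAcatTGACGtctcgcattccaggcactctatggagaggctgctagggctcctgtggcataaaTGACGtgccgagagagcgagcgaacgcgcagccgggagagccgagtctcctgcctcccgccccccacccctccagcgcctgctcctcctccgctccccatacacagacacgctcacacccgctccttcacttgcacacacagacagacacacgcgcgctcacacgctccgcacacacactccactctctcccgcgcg
Jun, chr4:95052173-95052472, minus strand: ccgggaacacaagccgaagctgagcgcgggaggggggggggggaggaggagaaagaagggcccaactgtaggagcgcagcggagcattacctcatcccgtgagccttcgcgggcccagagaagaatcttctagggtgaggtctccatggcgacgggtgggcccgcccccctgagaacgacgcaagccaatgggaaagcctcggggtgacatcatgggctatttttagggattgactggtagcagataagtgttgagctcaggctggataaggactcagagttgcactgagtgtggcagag

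Counted from the start of the gene, the short motifs of Fos begin at −129 and −66. Npas4 has a close pair at −179 and −169. Nr4a3 holds 4 short motifs and had an r with Fos of 0.00, while the Jun window holds none and its r was −0.01. A match of letters describes the window and says nothing of binding in these mice.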

How the data were processed

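Total RNA of 24 mouse brain samples, 6 per group, was sequenced on an Illumina HiSeq instrument, per the labels' protocols. The authors deposited 1 file of whole-number counts per gene for each sample, not normalized. HISAT2, HTSeq 0.6.0, DESeq2 1.6.3 and the build mm10 are named in the submitters' processing notes, which give neither strand use nor the HISAT2 version. The 5 summary lines that name no gene held 26.2% to 39.8% of each file's total and were left out. The highest share was that of syn-Cre− replicate 5, and every other library had at most 30.8%. That library also had the lowest count in genes, with 7.46% of its total ambiguous and 4.71% not aligned. Of 52636 Ensembl identifiers, 52489 (99.7%) matched a symbol of GENCODE M21 on GRCm38. Depth was 41596313 to 69652824 counts in genes.

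Samples were grouped by the labels' cell type and genotype and numbered in accession order, so numbers pair nothing. That replicates are separate mice is taken from the group sizes in the labels. Counts as deposited were fitted with edgeR 4.0.16 in R 4.3.3, with TMM scaling, filterByExpr and the robust quasi-likelihood test, in 1 model of the 4 groups with 20 residual degrees of freedom. Benjamini-Hochberg adjustment ran over all 19726 genes tested and calls were made at 0.05. Covariation used the same model with the group-centred log2 CPM of Fos (prior count 2) as a covariate, over 19725 genes. Correlations used the group-centred values, with p from 100000 permutations within groups. Alternatives were other scalings and filters, DESeq2 1.42.0, limma 3.58.1, 1 line alone, other reference genes, further covariates and each library left out. The fits were also run on simulated counts with planted changes, drawn independently for each gene. The outcome is not given here, and such draws do not cover unplanted movement shared by many genes. Members and lists were chosen with earlier results of these data known. All 37 members are named, other genes by p within the lists or by r with Fos at a mean of at least 3 log2 CPM. Sequences are RefSeq promoter windows of 300 bases.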

Additional observations from a re-analysis of the deposited data

Results flagged for a closer look

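Within each group of 6, a member was picked out where its highest or lowest library stood apart from the other 5 by more of the group's range than Dixon's 95% critical value. This held for 20 of 148 sets of a member and a group, where a nominal 1 in 20 would be 7.4. That figure assumes normal, independent values, while these were CPM without a log and members that move together are not independent. The share over all genes was not computed, so the count is no result about the class. They fell on 14 genes.

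In syn-Cre− replicate 2 there were 8, all high: Egr1 at 256 CPM, Arc at 215, Nr4a1 at 98.6, Dusp6 at 67.3, Egr4 at 22.4, Trib1 at 15.8, Sik1 at 11.8 and Egr2 at 4.17 CPM. In gfap-Cre+ replicate 3, Arc was at 135 CPM, Junb at 53.7, Dusp1 at 21.3, Gadd45b at 9.81 and Egr2 at 2.12 CPM. In syn-Cre+ replicate 1, Nr4a1 was at 57.2 CPM, Dusp6 at 54.6 and Npas4 at 21.1 CPM. The remaining 4 lay in other libraries. Egr4 was at 19.9 CPM in gfap-Cre− replicate 4, Bdnf at 53.2 CPM in gfap-Cre− replicate 3, Sik1 at 13.7 CPM in syn-Cre+ replicate 5 and Plk2 at 175 CPM in syn-Cre+ replicate 5, the single low value. The cause of these values was not tested.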

How the results depend on the processing

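The 0 members called in the Cre comparisons and in their difference stayed 0 under every alternative run. The number of all genes called between syn-Cre+ and syn-Cre− mice went from 1 to 5 without a filter, 14 with DESeq2, 8 with limma-voom and 2 in the syn line alone, and ran from 1 to 4 with single libraries left out. Arc in that comparison ran from −0.44 to 0.13. Between lines in Cre-positive mice, 3 of the 6 calls were left under RLE scaling, upper-quartile scaling or a filter at 1 CPM, and 3 to 7 with single libraries left out. Members called with Fos went from 14 to 4 and 5 in the syn and gfap lines alone, 2 with the cortex term, 7 with the heat shock term and 3 without the 2 farthest libraries, and ran from 7 to 14 with single libraries left out. All genes called with Fos went from 19 to 5 in the gfap line alone, 56 with centring also on the first number of the sample title, 38, 73 and 75 with Arc, Egr1 or Junb as reference, 2 with the cortex term, 7 with the heat shock term and 3 without the 2 farthest libraries, with 7 to 24 over single libraries left out. Causes were not tested.

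Over all members, 7022 values were computed under alternatives. Of these, 6584 kept their sign and their side of the threshold, 147 lost a call, 18 gained one and 273 changed sign. The terms for cortex, heat shock and glucocorticoid genes (13 members called) and the leaving out of 2 libraries were chosen after seeing the data. No paired analysis was possible because the labels give no shared replicate numbers. Depth limits Egr2 and Atf3 most, with as few as 10 and 18 counts in a library.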
